A study of Homo sapiens with 6 samples.

Results

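Toll-like receptors (TLRs) are innate immune receptors, and the genes described here are TLR1, TLR2, TLR3, TLR4, TLR5 and TLR6 with the adaptors MYD88 and TICAM1 (TRIF) and the kinases IRAK1 and IRAK2. They were taken by gene symbol from the count table, which lists 58735 genes, and all 10 were found once and passed the filter on low counts that left 15242 genes to test. Bulk RNA came from MDA-MB-231, a triple-negative breast cancer (TNBC) cell line labelled WT as the parent, and from cells of this line labelled ADR resistant (ADRr; ADR is Adriamycin, the topoisomerase II poison doxorubicin), with 3 libraries a group. Both were grown in the same serum-containing medium. The methods describe ADRr cells as raised stepwise in rising ADR concentrations from which single clones were then picked by dilution. The sources used here do not say whether the ADRr libraries come from a single clone or several. Differences tied to resistance cannot be told apart from other differences between picked clones and the parent line. Whether ADR was in the medium at harvest is not given in the sources used here. The series record mentions time points that the sample labels do not give, and nothing says that libraries of a group came from separate cultures, so the p-values measure the spread between these libraries, which may be technical.

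TLRs sense conserved microbial molecules and some molecules released from damaged cells. TLR2 pairs with TLR1 or TLR6 to bind lipoproteins, TLR4 binds lipopolysaccharide with the help of CD14 and MD-2 (LY96), TLR5 binds bacterial flagellin, and TLR3 binds double-stranded RNA in endosomes. TLRs other than TLR3 pass the signal through MyD88 to the kinases IRAK4, IRAK1 and IRAK2 and on to TRAF6 and NF-κB, whereas TLR3 signals through TRIF to IRF3 and interferon genes, and TLR4 uses both routes. Epithelial and carcinoma cells express several of these receptors.

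TLR2, TLR4, TLR5, TICAM1, IRAK1 and IRAK2 were higher in ADRr cells than in parent cells, TLR3 and TLR6 were lower, and TLR1 and MYD88 were not called. Fold changes ran from 3.90 for TLR5, 2.98 for TLR4 and 1.85 for TLR2 down to 0.333 for TLR3. Calling a gene took an adjusted p no higher than 0.05 (edgeR's quasi-likelihood test, Benjamini-Hochberg over all tested genes) and a 1.2-fold difference up or down, which is 0.263 on the log2 scale. By this rule 6 of 10 genes were called higher, where 29.2% of all tested genes were, and 2 were called lower, where 29.6% of all tested genes were. The libraries of the groups did not overlap for the same 6 and 2 genes, against 34.5% of all tested genes not overlapping and higher and 34.7% not overlapping and lower. The median log2 fold change was 0.36 over the 10 genes and -0.01 over all tested genes. The 10 genes were chosen with earlier results of these data known. These shares and medians describe them and are not a test of the set. In bulk RNA, fewer expressing cells and less RNA per cell cannot be told apart.

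Total counts per library ranged from 15983985 to 18272314, and TMM factors, which scale the libraries to each other, from 0.987 to 1.01. The limit for a gene read 0 times is 3 counts, which is 0.164 to 0.188 CPM (the count relative to all counts of its library), for counting error only. Because TLRs are abundant in leukocytes, 15 leukocyte markers were read in every library. Of these, 5 were at 0 in all libraries (TYROBP, AIF1, SPI1, CD2 and MS4A1), and PTPRC, the pan-leukocyte gene, had 0 to 2 counts. CSF1R, with 19 to 83 counts, was the one marker tested and was lower in ADRr cells (log2 fold change -1.31, adjusted p = 1.12e-04). The summed level of all 15 was 3.64 to 4.88 CPM in parent and 1.67 to 3.12 CPM in ADRr libraries, but this order was set by CSF1R. The other 14 together had 5, 4 and 4 counts in parent and 17, 8 and 20 in ADRr replicates, among them ITGAM (0 in each parent library and 6, 6 and 7 in ADRr) and CD53 (0 in each parent library and 4, 1 and 3 in ADRr). The part of these few reads in the TLR results was not tested. The markers typical of MDA-MB-231 (VIM, CD44, KRT8, KRT18 and MSN) were all expressed, but 4 of the 5 were called, with CD44 higher (0.80 on the log2 scale) and KRT18 (-0.65), VIM (-0.56) and KRT8 (9209 to 11629 counts in parent and 2522 to 2965 in ADRr libraries) lower. Of the exonic bases of KRT18, 16.3% lie opposite KRT8, and strandedness is not given, so the value of KRT18 is less certain. MSN was higher in every ADRr library but below the fold threshold (0.13, adjusted p = 0.018). Of 5 markers held to be absent or low, the hormone receptor genes ESR1 and PGR had at most 1 count, while ERBB2 (882 to 2303 counts, log2 fold change -1.24, called lower), GATA3 (442 to 568, not called) and EPCAM (152 to 492, log2 fold change 1.10, called higher) were read in every library.

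The promoters of the receptors that changed most are shown because the direction of change differed between them, and that of TICAM1 because it held an NF-κB match. Each runs from 250 bases before to 50 bases after the RefSeq start on GRCh38.p14, 5′ to 3′ on the gene's strand. 9 of the 10 genes had an entry. Capitals mark matches, on either strand, to GGGANNTTCC (NF-κB), GAAANNGAAA (interferon-stimulated response element, ISRE), TTCNNNGAA (STAT dimer site, GAS) or TGANTCA (AP-1).
TLR5, chr1:223143199-223143498, minus strand: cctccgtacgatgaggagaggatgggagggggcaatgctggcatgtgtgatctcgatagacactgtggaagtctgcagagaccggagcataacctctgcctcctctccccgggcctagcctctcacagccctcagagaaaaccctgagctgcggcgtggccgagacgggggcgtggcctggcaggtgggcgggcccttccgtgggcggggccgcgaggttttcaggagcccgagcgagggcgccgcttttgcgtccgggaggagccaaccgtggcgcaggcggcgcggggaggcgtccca
TLR4, chr9:117704153-117704452, plus strand: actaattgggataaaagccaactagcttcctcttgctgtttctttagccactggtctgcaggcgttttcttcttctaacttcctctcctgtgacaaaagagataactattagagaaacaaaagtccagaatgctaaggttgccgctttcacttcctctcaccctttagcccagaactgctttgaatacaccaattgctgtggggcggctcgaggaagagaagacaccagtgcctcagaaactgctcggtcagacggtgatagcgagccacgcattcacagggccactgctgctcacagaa
TLR2, chr4:153684030-153684329, plus strand: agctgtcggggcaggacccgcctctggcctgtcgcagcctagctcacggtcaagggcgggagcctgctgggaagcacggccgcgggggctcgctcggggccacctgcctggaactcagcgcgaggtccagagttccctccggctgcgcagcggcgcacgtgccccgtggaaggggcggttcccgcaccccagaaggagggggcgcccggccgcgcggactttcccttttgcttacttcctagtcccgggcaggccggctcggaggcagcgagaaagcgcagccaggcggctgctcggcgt
TLR3, chr4:186068906-186069205, plus strand: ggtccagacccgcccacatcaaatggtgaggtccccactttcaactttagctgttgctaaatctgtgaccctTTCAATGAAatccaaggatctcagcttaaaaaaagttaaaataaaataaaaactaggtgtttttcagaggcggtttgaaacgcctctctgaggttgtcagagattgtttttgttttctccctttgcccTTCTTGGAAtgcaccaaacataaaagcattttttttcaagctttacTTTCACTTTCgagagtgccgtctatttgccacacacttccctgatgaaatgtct
TICAM1, chr19:4831663-4831962, minus strand: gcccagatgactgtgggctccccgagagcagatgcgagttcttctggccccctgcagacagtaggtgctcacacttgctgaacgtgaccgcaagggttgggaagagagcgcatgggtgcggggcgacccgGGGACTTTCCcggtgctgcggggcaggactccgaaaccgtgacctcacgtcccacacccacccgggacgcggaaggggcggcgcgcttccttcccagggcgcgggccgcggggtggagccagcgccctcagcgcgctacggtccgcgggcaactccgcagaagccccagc
The 3 receptors that rose held none of these letters in this window. Their base composition differed, with 33 CpGs and 72.7% G+C for TLR2, 27 CpGs and 68.3% for TLR5, and 8 CpGs and 48.3% for TLR4. TLR3, which fell, had 5 CpGs and 40.3% G+C, with 2 GAS matches that began 178 and 50 bases before the start and an ISRE match, on the opposite strand, that began 4 bases before it. TICAM1 had its NF-κB match 120 bases before the start. Of the other genes, MYD88 held an ISRE match 61 bases before the start that overlapped a GAS match, IRAK1 an AP-1 match that began 1 base before the start, and TLR6 and IRAK2 none. Over all 35116 promoters of this length, 1.61% held the NF-κB letters, 3.57% the ISRE, 7.66% the GAS and 7.71% the AP-1 letters. A match is a description of the letters, and binding was not measured here. The gene annotation lists 8 transcript start positions for TLR2, 5 for TLR4, 6 for TLR5 and 5 for TLR3. Only a single window per gene was read, and looser forms of the patterns were not searched.

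TLR2 (ENSG00000137462, chr4:153684070-153705702, plus strand), the common partner of the lipoprotein receptors, was counted 388, 388 and 386 times in parent cells (replicates 1 to 3, the order used throughout) and 757, 679 and 828 times in ADRr cells. Every ADRr library was above every parent library. Normalized counts rose from 398 ± 21.9 to 735 ± 33.7 (SD, n = 3 each), a log2 fold change of 0.88 (SE 0.081, adjusted p = 2.13e-09).

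Neither partner of TLR2 was called higher. TLR6 (ENSG00000174130, chr4:38823715-38856817, minus strand), which joins TLR2 on diacylated lipopeptides, had 138, 167 and 136 counts in parent cells and 113, 93 and 110 in ADRr cells. The highest ADRr library stayed below the lowest parent library, and normalized counts fell from 152 ± 25.5 to 103 ± 5.11 (log2 fold change -0.56, SE 0.15, adjusted p = 0.0027). TLR1 (ENSG00000174125, chr4:38790677-38856817, minus strand), the partner for triacylated lipopeptides, had 19, 16 and 19 counts in parent cells and 23, 12 and 12 in ADRr cells. These groups overlapped, and at this depth the log2 fold change of -0.27 had a 95% confidence interval from -1.07 to 0.52 (adjusted p = 0.54). It was -0.62 without ADRr replicate 1, -0.16 without ADRr replicate 2 and -0.09 without ADRr replicate 3, and was not called in any of these. FPKM, the per-length scale, is fragments per kilobase of all annotated exons of a gene, scaled to the size of the library. On it, the ratio of TLR2 to TLR6 was 3.07 ± 0.335 in parent and 8.30 ± 0.495 in ADRr libraries. TLR2 to TLR1 was 17.7 to 21.1 in parent and 28.6 to 60.0 in ADRr libraries. Neither ratio overlapped between groups.

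TLR1 and TLR6 are paralogs that begin at the same base, and 57 exonic bases belong to both genes, 1.26% of TLR1 and 0.944% of TLR6. Of all 75-base windows in their transcripts, 3.14% in TLR1 and 2.45% in TLR6 occurred in the other gene, and none in TLR10. How the counting treated reads from shared bases is not given in the sources used here, so the smaller counts of TLR1 are the less certain. With the counts of TLR1, TLR6 and TLR10 summed, the log2 fold change was -0.53 (adjusted p = 0.0024), a value set mostly by TLR6.

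TLR4 (ENSG00000136869, chr9:117704175-117724730, plus strand), the lipopolysaccharide receptor, had 207, 209 and 167 counts in parent and 627, 569 and 637 in ADRr cells. All ADRr libraries lay far above the parent libraries, and normalized counts rose from 201 ± 33.5 to 596 ± 0.891 (log2 fold change 1.57, SE 0.11, adjusted p = 9.47e-12). The ADRr libraries lay closer together than counting error alone gives on average at such counts, so their SD is not a measure of precision. Of the exonic bases of TLR4, 4.2% are shared with AL160272.2, which had 0 counts in every library, so reads from them could have gone uncounted. LY96, the MD-2 protein that holds the lipid for TLR4, had 20, 31 and 19 counts in parent and 77, 82 and 71 in ADRr cells. It rose as well (log2 fold change 1.64, SE 0.26, adjusted p = 9.56e-06), and the FPKM ratio of LY96 to TLR4 was 2.61 ± 0.576 in parent and 2.76 ± 0.362 in ADRr libraries, with overlap. CD14, which hands lipopolysaccharide to the pair, had 87, 78 and 133 counts in parent and 90, 101 and 87 in ADRr cells (log2 fold change -0.16, SE 0.19, adjusted p = 0.46). Its FPKM ratio to TLR4 was 3.73 ± 1.63 in parent and 1.07 ± 0.154 in ADRr libraries, without overlap.

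TLR5 (ENSG00000187554, chr1:223109406-223143282, minus strand), the flagellin receptor, had 17, 16 and 18 counts in parent cells and 60, 64 and 87 in ADRr cells. All parent libraries were low and nearly equal, closer together than counting error alone gives on average. The ADRr libraries spread more but stood well above them. Normalized counts rose from 17.4 ± 0.120 to 68.4 ± 12.1, the largest log2 fold change of the 10 genes (1.97, 95% confidence interval 1.41 to 2.52, adjusted p = 1.05e-06). TLR3 (ENSG00000164342, chr4:186069152-186088069, plus strand), the endosomal double-stranded RNA receptor, went the other way, with 155, 200 and 170 counts in parent and 77, 45 and 63 in ADRr cells. The highest ADRr value was below the lowest parent value, and normalized counts fell from 180 ± 31.2 to 59.7 ± 13.1 (log2 fold change -1.59, 95% confidence interval -1.96 to -1.21, adjusted p = 5.64e-08). The FPKM ratio of TLR4 to TLR3 was 0.568 ± 0.0955 in parent and 5.22 ± 1.14 in ADRr libraries. The order of these TRIF-using receptors thus reversed on the per-length scale. FPKM divides by all annotated exon bases, 13272 for TLR4 and 6724 for TLR3, and which transcripts were expressed was not measured. In raw counts, TLR4 (207, 209 and 167 in parent) already stood above TLR3 in parent replicates 1 and 2, but not in 3.

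**Figure D1:**
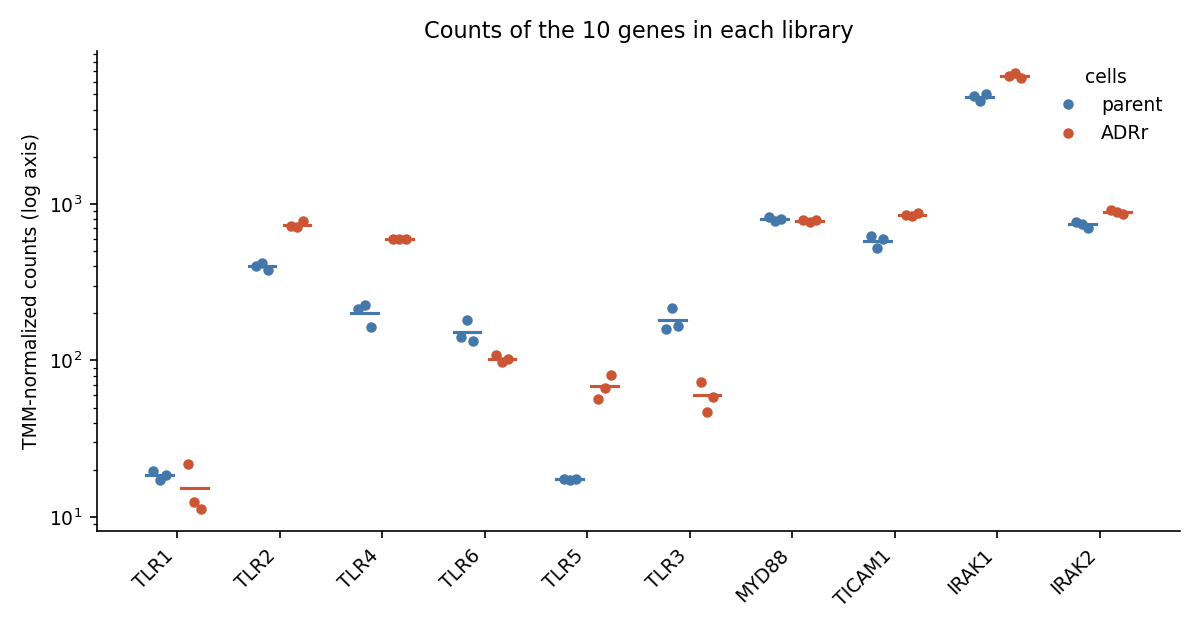
TMM-normalized counts (log axis) of the 10 genes in each library, with 1 point per library, parent on the left and ADRr on the right of each gene, and bars at the group means. TLR5 and TLR4 stand higher in ADRr, TLR3 and TLR6 lower, and the points of MYD88 and TLR1 overlap between groups.

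MYD88 (ENSG00000172936, chr3:38138478-38143022, plus strand), the adaptor that most TLRs and the IL-1 receptors share, had 804, 717 and 824 counts in parent and 827, 728 and 838 in ADRr cells. The groups overlapped, and the log2 fold change was -0.05 with a 95% confidence interval from -0.19 to 0.10 (adjusted p = 0.58), an interval that lies within the fold threshold of 1.2 in both directions. TICAM1 (ENSG00000127666, chr19:4815932-4831704, minus strand), which encodes TRIF, had 607, 482 and 613 counts in parent and 887, 801 and 936 in ADRr cells. Its groups did not overlap, and normalized counts rose from 581 ± 53.5 to 852 ± 19.3 (log2 fold change 0.55, SE 0.078, adjusted p = 1.73e-06). The FPKM ratio of TICAM1 to MYD88 was 1.08 ± 0.0670 in parent and 1.63 ± 0.0334 in ADRr libraries, without overlap.

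IRAK1 (ENSG00000184216, chrX:154010500-154019980, minus strand), a kinase recruited to MyD88, was the most abundant of the 10 genes, with 4716, 4212 and 5192 counts in parent and 6876, 6579 and 6788 in ADRr cells. Every ADRr library exceeded every parent library, and normalized counts rose from 4822 ± 252 to 6589 ± 276 (log2 fold change 0.45, SE 0.052, adjusted p = 8.42e-08). IRAK2 (ENSG00000134070, chr3:10164865-10243743, plus strand), which sustains the signal downstream of MyD88, had 747, 687 and 724 counts in parent and 962, 847 and 925 in ADRr cells. Its groups also did not overlap, but the log2 fold change of 0.27 (SE 0.070, adjusted p = 0.0020) lay just past the fold threshold. Without parent replicate 3 it was 0.23, without ADRr replicate 1 it was 0.25, and in both cases IRAK2 was no longer called, which left 5 genes called higher. The FPKM ratio of IRAK1 to MYD88 was 5.85 to 6.28 in parent and 8.08 to 9.01 in ADRr libraries. Of the other kinases of the family, IRAK4, which acts first, was not called (0.20, adjusted p = 0.16), and IRAK3, the inhibitory member, was lower (-0.61, adjusted p = 2.47e-04).

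Compared per length, the adaptors and kinases stood above the receptors in both groups. The length is that of all annotated exons of a gene, so an order between genes depends on which transcripts were expressed, which was not measured. In parent cells IRAK1 led with 68.9 ± 3.55 FPKM, followed by TICAM1 (12.4 ± 1.16), IRAK2 (12.1 ± 0.559) and MYD88 (11.5 ± 0.395), where TICAM1 and IRAK2, and IRAK2 and MYD88, overlapped. TLR2 followed at 4.36 ± 0.244 FPKM, then TLR3 (1.53 ± 0.264) and TLR6 (1.44 ± 0.241), which overlapped, and TLR4 (0.864 ± 0.146), TLR1 (0.233 ± 0.0146) and TLR5 (0.128 ± 9.78e-04). In ADRr cells the order of the first 5 genes was the same, with IRAK1 at 94.4 ± 3.68, TICAM1 at 18.3 ± 0.460, IRAK2 at 14.6 ± 0.414, MYD88 at 11.2 ± 0.220 and TLR2 at 8.08 ± 0.392 FPKM, and no neighbours among them overlapped. TLR4 moved up to follow TLR2 at 2.57 ± 0.00753 FPKM, ahead of TLR6 (0.974 ± 0.0502). TLR3 (0.510 ± 0.112) and TLR5 (0.506 ± 0.0906) overlapped, and TLR1 was last (0.192 ± 0.0736).

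The summed level of TLR1 to TLR6 was 7.82 to 9.46 FPKM in parent libraries (mean 8.56) and 12.3 to 13.3 FPKM in ADRr libraries (mean 12.8), a difference of 4.27 FPKM in the means. TLR2 added 3.71 FPKM to it and TLR4 1.71 FPKM, while TLR3 changed it by -1.02 FPKM and TLR6 by -0.463 FPKM. TLR5, in spite of its fold change, added 0.377 FPKM. As a share of the sum, TLR2 went from 51.1 ± 2.21% to 62.9 ± 1.17% and TLR4 from 10.1 ± 1.03% to 20.1 ± 0.735%. TLR3 went from 17.9 ± 1.61% to 3.96 ± 0.825% and TLR6 from 16.7 ± 1.18% to 7.59 ± 0.321%. The shares of these 4 receptors did not overlap between the groups.

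**Figure D2:**
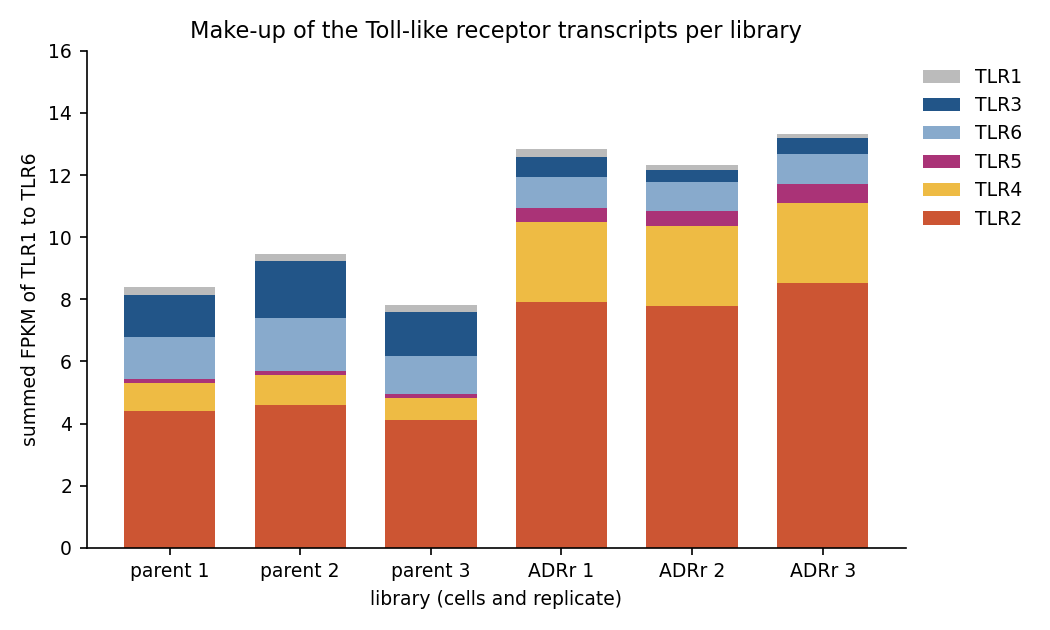
Summed FPKM of TLR1 to TLR6 in each of the 6 libraries, stacked by gene from TLR2 at the bottom to TLR1 at the top. The ADRr bars are taller, with wider TLR2 and TLR4 segments and narrower TLR3 and TLR6 segments than the parent bars.

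Cancer cell lines gain and lose chromosome segments, so each gene was set beside the median log2 fold change of its 50 nearest tested genes on the chromosome. DNA copy number was not measured here, and its part in the changes was not tested. The genes near TLR5 and TLR4 had medians of 0.20 and 0.18, where the receptors had 1.97 and 1.57. TLR2 rose where its neighbours had a median of -0.36, and 27 of the 50 were called lower. IRAK2 rose in the region with the lowest median of the 10, -0.64, with 34 of 50 neighbours called lower, and MYD88, on the same chromosome, lay above a median of -0.35. TLR3 fell further than its neighbours, whose median was -0.59 with 31 of 50 called lower. The medians were -0.02 near both TLR1 and TLR6, -0.09 near TICAM1 and 0.04 near IRAK1. Several of these values depended on how many neighbours were read. With the 100 nearest genes the median was -0.24 near TLR1, beside -0.27 for TLR1 itself, and -0.26 near TLR6, with 43 of 100 called lower in each case. With the 20 nearest genes it was -0.07 near MYD88, -0.35 near TICAM1 and -0.71 near TLR2.

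**Figure D3:**
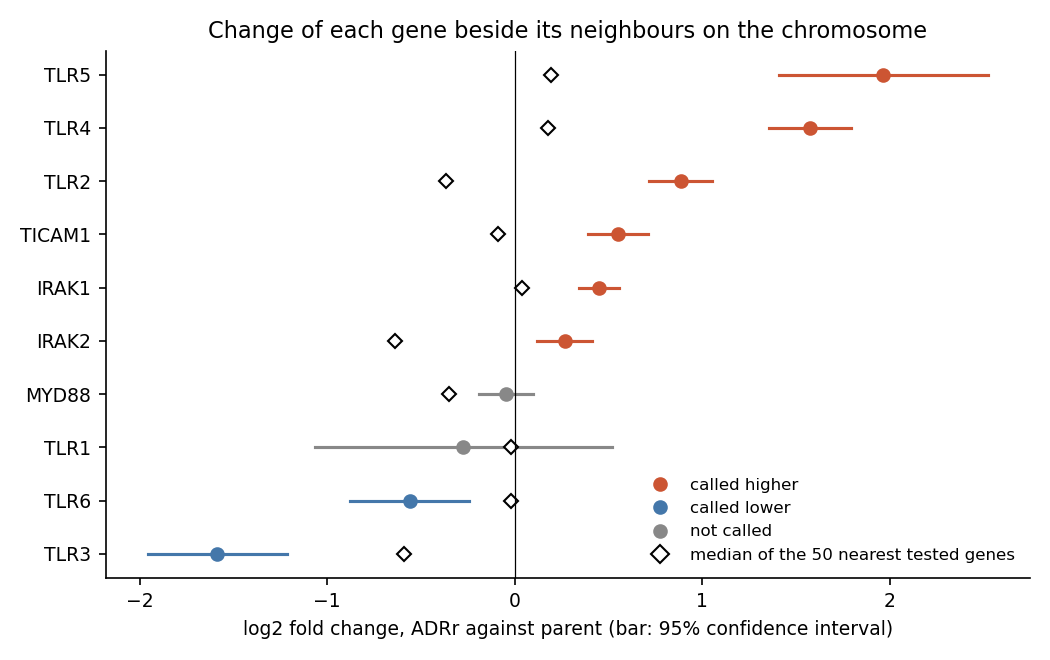
Log2 fold change of each of the 10 genes, ADRr against parent, with its 95% confidence interval as a bar, and the median of its 50 nearest tested genes as an open diamond. The diamonds lie between -0.64 and 0.20, and TLR2, TLR4, TLR5, TICAM1, IRAK1 and IRAK2 lie to the right of theirs, while TLR3 and TLR6 lie to the left.

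The counts of called genes in the rest of the pathway stand beside 29.2% of all tested genes called higher and 29.6% called lower. A list with shares near these does not stand out from them. The lists were also chosen with earlier results of these data known, so a list with other shares is described and not tested. The remaining TLRs had few counts. TLR7, an endosomal receptor for single-stranded RNA, had 12, 9 and 16 counts in parent and 23, 23 and 22 in ADRr cells, without overlap and not called (log2 fold change 0.80, SE 0.37, adjusted p = 0.060). TLR8 (0 to 9 counts), TLR9 (1 to 5) and TLR10 (0 to 2) were too low to test, and 86.3% of the exonic bases of TLR9 also belong to AC097637.1, so its reads could have gone uncounted.

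Of 10 co-receptors and chaperones, 5 were tested, 1 of them higher and 2 lower, with a median of -0.16. LY96 was the higher one. The lower ones, HSP90B1 (gp96, -0.32, adjusted p = 1.31e-05) and CNPY3 (-0.66, adjusted p = 2.90e-09), fold TLRs in the endoplasmic reticulum. UNC93B1, which carries the nucleic acid receptors to endosomes, was not called (-0.11, adjusted p = 0.13), nor was CD14. LBP, CD36 and CD180 had at most 5 counts in any library, and LY86 and TRIL, with 0 in all, were not detectable at this depth.

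Of 15 other adaptors and enzymes of the MyD88 route, 14 were tested, 3 of them higher (29.2% of all tested genes) and 6 lower (29.6%), with a median of -0.20. The higher ones were PELI1 (1.98, adjusted p = 3.81e-13), a ubiquitin ligase that acts on IRAKs, IRF5 (0.99, adjusted p = 2.97e-06), a transcription factor bound by MyD88, and TRAF6 (0.69, adjusted p = 1.84e-06), the ligase downstream of IRAK1. The 3 largest decreases were those of PIK3AP1 (-1.19), which links TLRs to PI3K, MAP3K8 (-1.01), the kinase that activates ERK downstream of TLRs, and PELI3 (-0.83). TIRAP, which bridges TLR2 and TLR4 to MyD88, had a log2 fold change of -0.25 (adjusted p = 0.11).

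Of 10 genes of the TRIF route, 8 were tested, 2 of them higher and 2 lower, with a median of -0.03, near the 29.2% and 29.6% of all tested genes. IRF7 (1.26, adjusted p = 2.44e-10), a transcription factor of type I interferon genes, and TANK (0.50, adjusted p = 2.40e-06), a scaffold of the kinases TBK1 and IKBKE, were higher. IKBKE (-0.55, adjusted p = 3.26e-08) and FADD (-0.45, adjusted p = 8.69e-04) were lower. Of the exonic bases of FADD, 54.9% lie opposite AP000879.1, which had 0 counts in every library. Reads from these shared bases could have gone uncounted. TRAF3, RIPK1, TBK1 and IRF3, the factor that TRIF activates, were not called. RIPK1 was higher in every ADRr library but below the fold threshold (0.15, adjusted p = 0.047). Of the exonic bases of IRF3, 19.3% lie opposite BCL2L12, which had 898 to 1307 counts in parent and 525 to 557 in ADRr libraries. Strandedness is not given, so the value of IRF3 is less certain. TICAM2 (TRAM), which bridges TLR4 to TRIF, had 0 or 1 count, but 93.4% of its exonic bases overlap other genes, mainly the readthrough gene TMED7-TICAM2, so its reads could have gone uncounted.

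Among 11 negative regulators, all tested, 3 were higher and 4 lower, with a median of -0.16, also near the 29.2% and 29.6% of all tested genes. TNFAIP3 (A20, 1.40), CYLD (1.25) and TOLLIP (0.55) were higher. The first pair removes ubiquitin chains from TRAF6 and its partners, and TOLLIP holds back IRAK1. ZC3H12A (-1.39), an RNase for cytokine mRNAs, IRAK3 (-0.61) and RNF216 (-0.50), a ligase that targets TLRs for degradation, were the 3 largest decreases. Of 6 IL-1 family receptors that also signal through MyD88, 3 were tested and all 3 were higher, namely IL1RAP (1.29), IL1R1 (0.79) and IL1RL2 (0.48).

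Response genes were read last. Of 12 genes induced through MyD88 and NF-κB, 10 were tested, 6 of them higher (29.2% of all tested genes) and 3 lower (29.6%), with a median of 0.54. TNFAIP3 is 1 of the 6 and is also counted among the negative regulators. IL1B (3.78), IL6 (1.97) and CXCL2 (1.53) rose most, while NFKBIA (-0.79), the NF-κB inhibitor, CXCL1 (-0.58) and NFKBIZ (-0.32) fell. Of 8 genes induced through TRIF and IRF3, 7 were tested and all 7 were higher, with a median of 1.88, led by CCL5 (4.12), RSAD2 (2.99) and ISG15 (2.13). Among the 7, CXCL10 had 7, 8 and 9 counts in parent and 26, 27 and 41 in ADRr libraries. It passed the filter through its ADRr counts. With at least 10 counts required in every library, 6 genes of the list were called higher. IFNB1, the interferon gene of the TRIF route, had 0 counts in all 6 libraries. These genes answer to many other receptors, and their link to the TLRs was not tested.

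**Figure D4:**
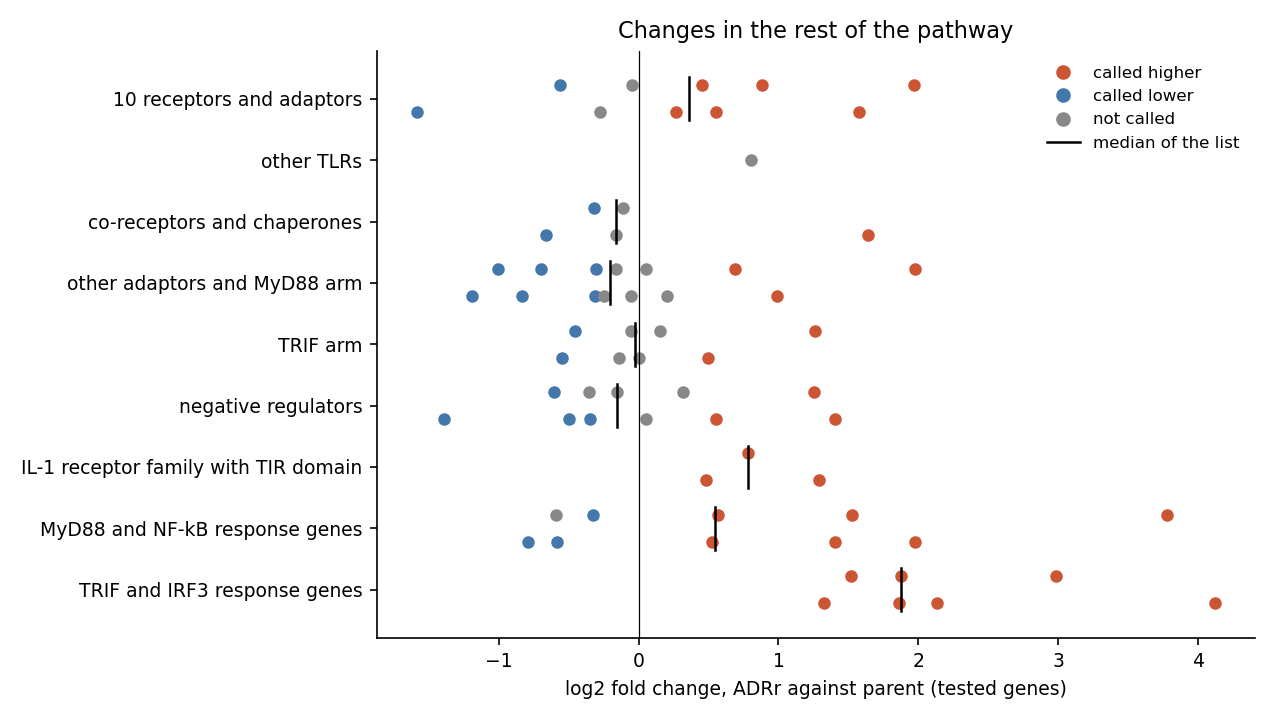
Log2 fold change of each tested gene, ADRr against parent, by list, with called genes in colour, genes not called in grey and the median of each list as a line. The 7 tested response genes of the TRIF route and the 3 tested IL-1 family receptors all lie above 0, and the other lists with more than 1 tested gene lie on both sides.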

How the data were processed

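Polyadenylated RNA was sequenced as paired-end reads. The submitters' processing notes name fastp, HISAT2 2.0.5, featureCounts 1.5.0-p3, DESeq2 1.20.0 and GRCh38; strandedness and the handling of reads with several matches are not given in the sources used here. The authors deposited raw integer counts for each gene and, in a second table, FPKM. All identifiers, lengths and coordinates equalled GENCODE 29.

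The raw counts were tested with edgeR 4.0.16 under R 4.3.3 (filterByExpr, TMM, quasi-likelihood test, Benjamini-Hochberg adjustment over 15242 tested genes of 58735). The study's methods give a fold threshold that can be read as 1.2-fold or as 1.2 on the log2 scale; the first reading was used and the other was an alternative. FPKM served only to compare levels between genes and, on a log2 scale, as an alternative in limma 3.58.1. DESeq2 1.42.0, other size factors, other filters, pseudocounts of 1 and 0.1, a replicate block and each library left out were the other alternatives. The test was run on simulated data with far fewer changed genes than were called here. Its behaviour under changes as widespread as these was not checked.

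The members and the 8 pathway lists were chosen with earlier results of these data known. Genes named were the 10 members, all other TLRs and co-receptors, and the markers of the line. In each other list, the 3 largest called increases and decreases with a mean of 10 or more normalized counts were named. Some genes that share exons with these were named, but not all of them. VIM (24.4% of its exonic bases), TIRAP (22.5%), IL6 (20.7%) and PELI3 (18.7%) are among the named genes that share bases with others. IRAK4, TIRAP, TRAF3, RIPK1, TBK1, IRF3, IFNB1, CXCL10 and single leukocyte markers were named after their values were seen. The protein identity of TLR1 and TLR6 was not computed, and shared transcript windows were used in its place. Replicate numbers did not pair the libraries.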

Additional observations from a re-analysis of the deposited data

How the results depend on the processing

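The 6 genes called higher and the 2 called lower changed in number by more than 1.5 times under 1 alternative, a threshold of 1.2 on the log2 scale in place of 1.2-fold, which left 2 higher (TLR4 and TLR5) and 1 lower (TLR3). No log2 fold change of the 10 genes reversed its sign under any alternative. With limma on log2(FPKM + 1), IRAK2 was not called (0.25), and the log2 fold changes of TLR5 (0.41), TLR4 (0.94) and TLR3 (-0.74) shrank, since the pseudocount is large beside their FPKM. With a pseudocount of 0.1, TLR7 was called higher. With each library left out in turn, 5 to 6 genes were called higher and 2 lower. The log2 fold change of TLR1 then ranged from -0.62 to -0.09 without being called.

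With a replicate block the counts were again 6 higher and 2 lower, and the block changed no call of the 10 genes (IRAK2 0.27, TLR1 -0.31). Same-numbered libraries of the groups did not deviate together, with correlations of 0.007, -0.02 and -0.05. The median of the neighbours was 0.07 with 20 genes and -0.24 and -0.26 with 100 genes near TLR1 and TLR6, -0.71 with 20 genes near TLR2 and -0.12 with 100 genes near IRAK1. Depth limits TLR1, whose 12 to 23 counts leave a wide interval, and the untested TLR8, TLR9 and TLR10.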
